A study of Mus musculus with 6 samples.

Results

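Nuclear-encoded subunits of the 4 respiratory chain complexes and of ATP synthase were measured in whole kidney extracts of wild-type and Vhl knockout mice. Members were the rows, named by Entrez ID, whose gene symbol marks a subunit of complex I (Nduf), complex II (Sdha to Sdhd), complex III (Uqcr), complex IV (Cox4 to Cox8) or complex V (Atp5). They made up 77 of the 25206 rows on the arrays, with 35 rows for complex I, 4 for complex II, 8 for complex III, 17 for complex IV and 13 for complex V. Of these rows 75 were protein-coding genes and 2 were pseudogenes, Uqcrh-ps1 and Atp5c1-ps. Not every known subunit was among the 77, and cytochrome c1 (Cyc1) of complex III was counted in a list with assembly factors instead. Ndufa4l2, a paralog of Ndufa4 that answers to hypoxia, was left out by the rule and is described beside its relatives.

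Complexes I to IV of the inner mitochondrial membrane pass electrons from NADH and succinate to oxygen, and complexes I, III and IV pump protons as they do so. Complex V uses the returning protons to make ATP. The proximal tubule and the thick ascending limb of the kidney are rich in mitochondria, since solute transport there runs on this ATP. VHL marks the HIF alpha subunits for destruction, and in cells without it stabilized HIF is known to turn on glycolytic genes and several genes that restrain respiration.

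Both genotypes were male mice on the C57BL/6 background, whose kidneys were taken at 3 months without further treatment, with 3 arrays per genotype. The wild-type mice carried the floxed Vhl allele, and the knockout mice carried it together with Hoxb7-Cre-GFP. The Hoxb7 promoter drives Cre in only part of the tubule, so that the extract also held cells with intact Vhl, and the wild-type labels of the arrays name no Cre. For tubule cells cultured from this line, the study's methods describe wild-type mice that carried Hoxb7-Cre-GFP. For the kidneys on the arrays, the loss of Vhl and the transgene cannot be told apart if the wild-type mice lacked it. No source states that each array was a separate mouse, and the p-values measure the spread between these samples. The signals were log2 values from RMA, which corrects background and normalizes arrays against each other. Array medians differed by at most 0.036. All 18 measured proximal tubule markers were above the array median on every array. The log2 fold change (log2FC, Vhl knockout minus wild-type) of Vhl itself was 0.03 (standard error, SE, 0.072, adjusted p = 0.860 from limma). The sources used here do not give the exons that its row reads, so that this value checks neither genotype.

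No subunit row passed the test in either direction. The genotypes were compared row by row with limma and Benjamini-Hochberg adjustment over all rows at a threshold of 0.05, by which 2.77% of all rows were called, 2.24% higher and 0.524% lower in the Vhl knockout kidneys. None of the 77 members was among them, and the lowest adjusted p of any member was 0.108 for Ndufa11. At an unadjusted p under 0.05 from limma, 6 members (7.79%), namely Ndufa11, Ndufs1, Uqcrfs1, Cox7b, Cox7a2l and Atp5md, had lower values and 0 had higher values, against 8.38% and 8.67% of all rows. With trend and robust eBayes, another variance model of limma, 15 members (19.5%) had lower and 2 (2.6%) higher values at that unadjusted level, against 8.79% and 9.26% of all rows, and again 0 passed after adjustment.

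The intervals of the differences were narrow. For 69 of the 77 members (89.6%) the 95% interval of the log2FC lay within 0.5 of 0 on both sides, that is within 1.41-fold, as it did for 74.9% of all rows. Among rows above the array median on all arrays it did so for 97.0% of members and 82.2% of all such rows. The 8 members whose interval went beyond 0.5 were Ndufb11, Ndufa11, Ndufb3, Cox7b, Cox5b, Cox8b and both pseudogenes. For all 77 the interval lay within 1, that is within 2-fold, with the lowest bound at -0.87 for Uqcrh-ps1 and the highest at 0.98 for Cox8b. No member had a fitted change beyond 0.5, and 5 had one beyond 0.25. The missed threshold does not show that the genotypes were alike, and a change smaller than these bounds may have gone undetected.

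**Figure D1:**
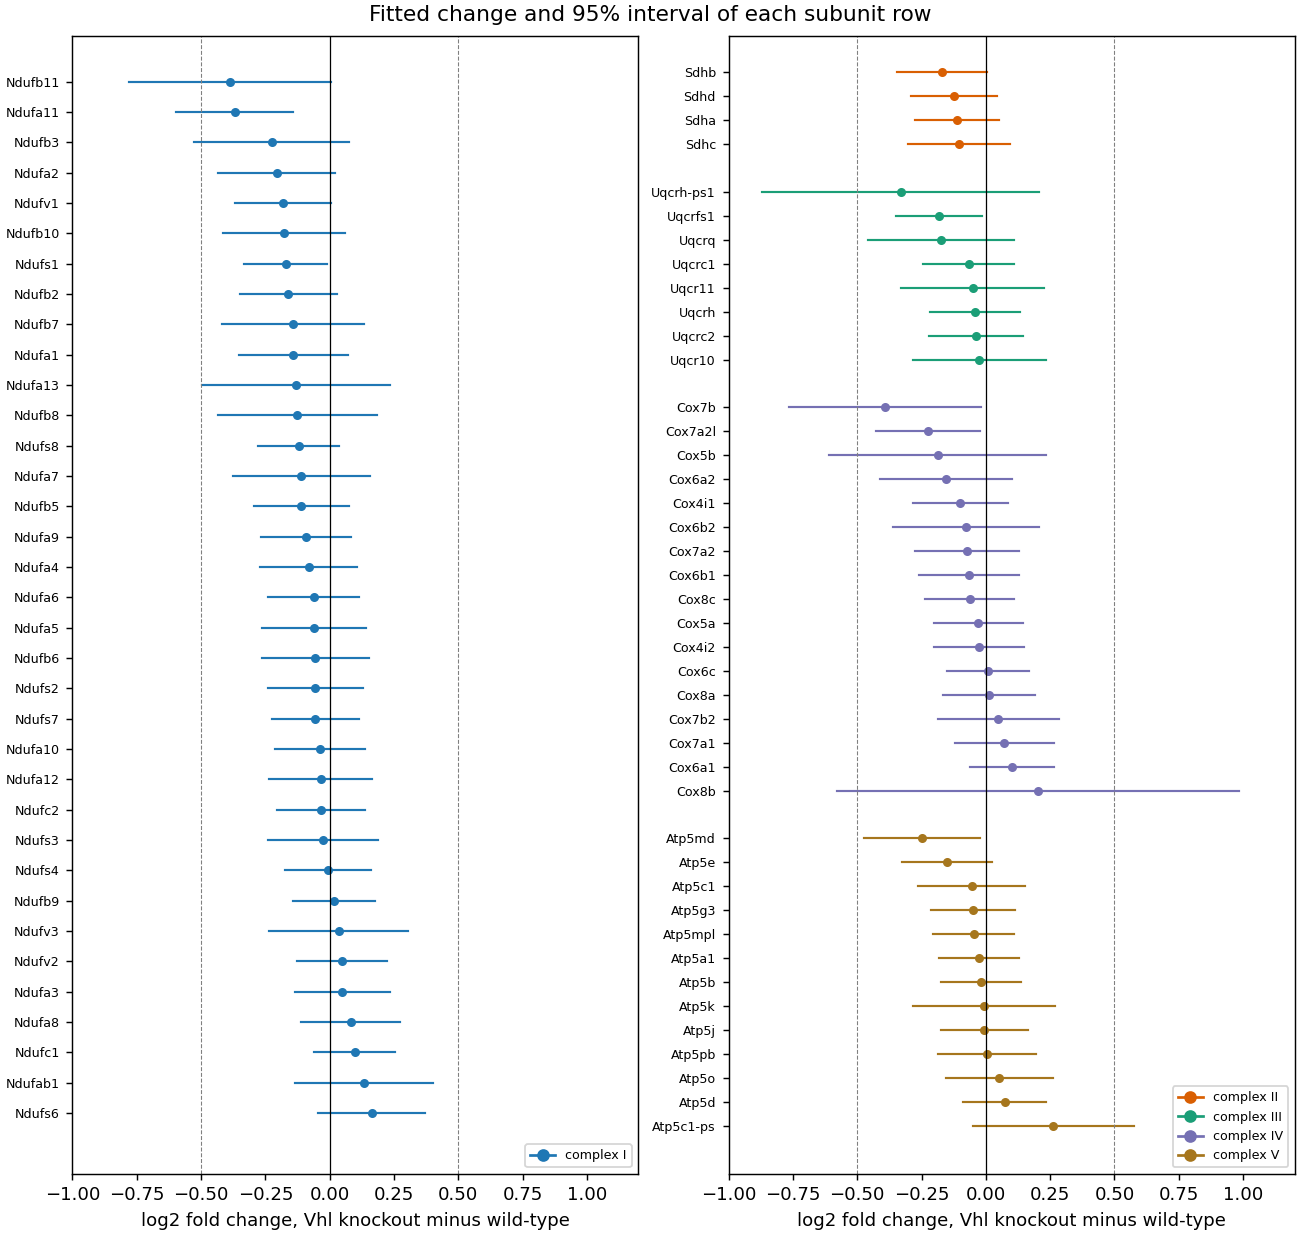
Each point is the fitted log2FC (Vhl knockout minus wild-type, 3 arrays per genotype) of a subunit row and each line its 95% interval from limma, grouped by complex, with dashed lines at -0.5 and 0.5. Points lie between -0.39 and 0.26, and 69 of 77 intervals stay between the dashed lines.

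More members lay below 0 than above, although no row passed on its own. The fitted log2FC was negative in 59 of 77 members (76.6%), against 57.3% of all rows and 51.7% of the 11638 rows above the array median on all arrays. Of the 66 members that were as bright as these, 51 were below 0. The median over members was -0.06, against -0.03 over all rows. Among rows above the array median on all arrays it was -0.06 for members and -0.006 for all such rows. Of these bright rows 1722 of 11638 had all knockout arrays below the wild-type arrays and 1888 had them above. All 4 rows of complex II and all 8 of complex III, the dim pseudogene Uqcrh-ps1 among them, were below 0. So were 27 of 35 in complex I, 11 of 17 in complex IV and 9 of 13 in complex V. The medians were -0.06 for complex I, -0.12 for complex II, -0.06 for complex III, -0.06 for complex IV and -0.02 for complex V. The 3 knockout arrays lay entirely below the 3 wild-type arrays in 15 members (19.5%), against 12.7% of all rows, and entirely above them in 2 (2.6%), against 11.2%. These rows share samples and are not independent, and the shares are given as a description. In a whole extract, fewer cells rich in mitochondria and less of these transcripts per cell cannot be told apart.

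**Figure D2:**
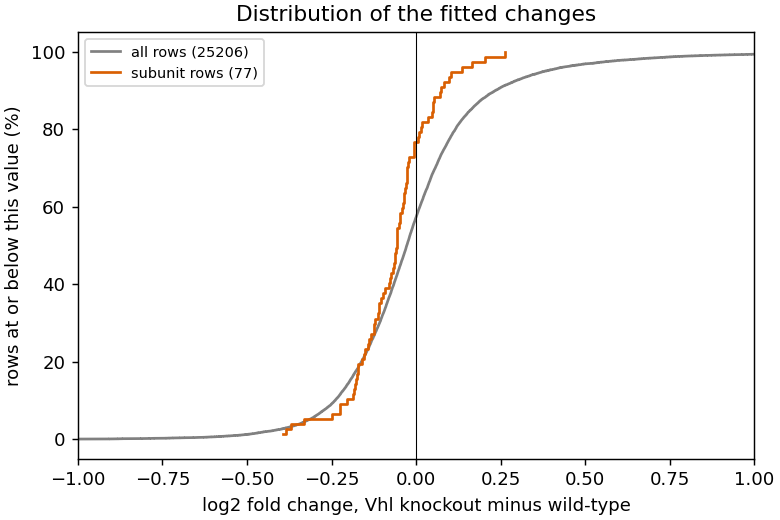
The curves give the percentage of rows at or below each fitted log2FC (Vhl knockout minus wild-type) for all 25206 rows and for the 77 subunit rows. The subunit curve crosses 0 at 76.6% and that of all rows at 57.3%, and no subunit row lies beyond -0.5 or 0.5.

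Short motifs were sought in the promoters of the subunits, taken as 300 bases around the start of each gene (250 before and 50 after, from RefSeq, GRCm38.p6). Of the 77 members 61 had an entry, and a gene with several starts was counted once if any of them held the motif. The letters searched on both strands were ACGTG, the core of the hypoxia response element, GCGCATG, part of the NRF-1 site, CCGGAAG, of the ETS and GABP type, and AAGGTCA, of the estrogen-related receptor type. ACGTG was found in 14 of 61 members (23.0%), against 23.8% of the 17708 genes with a row on the arrays and an entry. GCGCATG was found in 11 (18.0%), against 5.52%, and CCGGAAG in 15 (24.6%), against 12.9%. AAGGTCA was found in 5 (8.2%), against 4.7%. These are matches of letters, not sites shown to be bound.

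Shown here are the promoters of the member with the lowest unadjusted p in each complex, chosen after the values were seen, with matches to the 4 motifs in capitals. They lie at chr17:56717512-56717811 on the plus strand (Ndufa11), chr4:140961021-140961320 on the plus strand (Sdhb), chr13:30545267-30545566 on the minus strand (Uqcrfs1), chr17:83514284-83514583 on the minus strand (Cox7a2l) and chr19:47090598-47090897 on the minus strand (Atp5md). None of the 5 holds ACGTG. The Ndufa11 promoter holds GCGCATG on both strands in overlapping matches, that of Sdhb holds 1 match to the NRF-1 motif and 1 to the ETS motif, that of Atp5md 1 to the ETS motif, and those of Uqcrfs1 and Cox7a2l hold none of the 4.
Ndufa11: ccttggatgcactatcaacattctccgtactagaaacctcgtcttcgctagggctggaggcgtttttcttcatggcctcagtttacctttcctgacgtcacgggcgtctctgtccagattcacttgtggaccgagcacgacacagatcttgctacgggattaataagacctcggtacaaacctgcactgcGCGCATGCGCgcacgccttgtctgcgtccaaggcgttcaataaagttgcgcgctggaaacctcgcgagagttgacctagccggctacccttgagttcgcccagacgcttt
Sdhb: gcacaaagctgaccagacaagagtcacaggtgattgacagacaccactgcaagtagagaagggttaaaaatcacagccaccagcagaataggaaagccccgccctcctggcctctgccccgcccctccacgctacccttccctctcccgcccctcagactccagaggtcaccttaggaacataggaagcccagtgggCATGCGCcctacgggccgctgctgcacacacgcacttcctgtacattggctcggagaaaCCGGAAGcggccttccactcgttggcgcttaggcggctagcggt
Uqcrfs1: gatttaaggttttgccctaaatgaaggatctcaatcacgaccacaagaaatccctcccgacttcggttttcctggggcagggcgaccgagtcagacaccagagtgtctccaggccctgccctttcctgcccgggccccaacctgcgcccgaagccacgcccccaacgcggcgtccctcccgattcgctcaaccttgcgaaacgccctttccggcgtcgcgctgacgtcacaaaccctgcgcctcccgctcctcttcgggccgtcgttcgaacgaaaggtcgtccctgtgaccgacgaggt
Cox7a2l: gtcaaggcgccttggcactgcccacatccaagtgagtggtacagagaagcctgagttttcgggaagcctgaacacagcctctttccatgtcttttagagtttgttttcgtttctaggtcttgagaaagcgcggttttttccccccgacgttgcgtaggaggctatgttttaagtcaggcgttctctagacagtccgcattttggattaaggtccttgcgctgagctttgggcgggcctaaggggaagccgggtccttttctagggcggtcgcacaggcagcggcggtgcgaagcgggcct
Atp5md: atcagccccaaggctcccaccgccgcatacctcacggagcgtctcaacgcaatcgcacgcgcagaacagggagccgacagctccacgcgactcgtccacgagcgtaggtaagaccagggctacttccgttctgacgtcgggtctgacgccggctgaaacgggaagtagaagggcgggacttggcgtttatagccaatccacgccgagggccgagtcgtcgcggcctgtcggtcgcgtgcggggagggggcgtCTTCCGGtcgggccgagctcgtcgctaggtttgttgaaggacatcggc

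Complex I takes electrons from NADH through a peripheral arm and pumps protons through a membrane arm. Its member nearest to the threshold was Ndufa11, an accessory subunit of the membrane arm that helps to hold the complex together. In log2 signal Ndufa11 read 5.72, 5.60 and 5.46 in wild-type and 5.20, 5.13 and 5.34 in knockout kidneys. Its knockout arrays were all below the wild-type arrays, with a log2FC of -0.37 (SE 0.097, adjusted p = 0.108 from limma). In a fit of those rows alone that exceeded the median of an array at least 3 times the adjusted p was 0.0481, the only call of any member under the settings tried. Ndufb11, another accessory subunit of the membrane arm, had a slightly larger fitted change of -0.39 (SE 0.167, adjusted p = 0.301). It read 6.78, 6.90 and 6.31 in wild-type and 6.28, 6.09 and 6.46 in knockout kidneys, so that the groups overlapped through wild-type replicate 3.

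The core subunits of complex I carry the flavin and the iron-sulfur clusters. Ndufs1, which holds iron-sulfur clusters of the NADH-oxidizing tip, read 9.79, 9.76 and 9.77 in wild-type and 9.55, 9.62 and 9.64 in knockout kidneys. The wild-type arrays lay close together and above all knockout arrays, and the log2FC was -0.17 (SE 0.069, adjusted p = 0.269). Its neighbour Ndufv1, the flavin-binding subunit, had -0.18 (adjusted p = 0.305) and Ndufs8, another iron-sulfur subunit, -0.12 (adjusted p = 0.417), also with no overlap between the genotypes. The largest positive values in complex I were 0.16 for Ndufs6 (adjusted p = 0.403) and 0.13 for Ndufab1, the mitochondrial acyl carrier protein (adjusted p = 0.606), whose groups overlapped. Ndufc1 was the only complex I row with all knockout arrays above the wild-type arrays, at a log2FC of 0.10 (adjusted p = 0.513).

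By position in the complex, the 8 measured subunits of the NADH-oxidizing module had a median log2FC of -0.02, with 5 below 0. The 8 of the ubiquinone-reducing module had -0.06, with all 8 below 0 and the lowest at -0.12. The 17 of the membrane arm had -0.12, with 13 below 0 and a range from -0.39 to 0.10. The low values of the membrane arm came mostly from knockout replicate 1. Its median difference from the wild-type mean was -0.23 on that array, 0.0007 on that of replicate 2 and -0.01 on that of replicate 3. On these arrays 14, 8 and 11 of the 17 rows lay below the wild-type mean. The modules were assigned from textbook knowledge, and their medians were not tested against each other.

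Complex II is both succinate dehydrogenase of the TCA cycle and an entry point for electrons. Sdhb, its iron-sulfur subunit, read 9.81, 9.81 and 9.80 in wild-type and 9.54, 9.68 and 9.69 in knockout kidneys. The wild-type arrays hardly differed and every knockout array was lower, with a log2FC of -0.17 (SE 0.075, adjusted p = 0.303). Sdha, the flavoprotein subunit, read 11.08, 11.05 and 11.02 against 10.92, 10.90 and 10.99, a log2FC of -0.11 (adjusted p = 0.467). The membrane anchors Sdhd and Sdhc had -0.13 (adjusted p = 0.427) and -0.10 (adjusted p = 0.588), without and with overlap between the genotypes. Thus the knockout arrays lay below the wild-type arrays in 3 of the 4 subunits, as in 12.7% of all rows, and none passed the test, while the 95% interval of Sdhb ran from -0.35 to 0.00396.

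Complex III hands electrons from ubiquinol to cytochrome c. Uqcrfs1, the Rieske iron-sulfur protein, read 7.61, 7.69 and 7.63 in wild-type and 7.39, 7.51 and 7.48 in knockout kidneys. It was the only row of this complex without overlap, with a log2FC of -0.18 (SE 0.072, adjusted p = 0.258). The core proteins Uqcrc1 and Uqcrc2 had -0.07 (adjusted p = 0.701) and -0.04 (adjusted p = 0.850), and Uqcr10, a small subunit, -0.02 (adjusted p = 0.935). The pseudogene Uqcrh-ps1 had the most negative fitted value of complex III, -0.33 (adjusted p = 0.518), and lay under the lower quartile of all 6 arrays, while its parent Uqcrh had -0.04.

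Complex IV reduces oxygen to water. Cox7b, a small subunit needed for its assembly, had the most negative fitted value of all members, with a log2FC of -0.39 (SE 0.159, adjusted p = 0.271). Its signals were 4.80, 5.10 and 5.13 in wild-type and 4.44, 4.95 and 4.47 in knockout kidneys, and knockout replicate 2 overlapped with the wild-type arrays. Cox7a2l, a protein linked to supercomplexes of complexes III and IV, which were not measured here, read 5.64, 5.60 and 5.80 against 5.55, 5.39 and 5.43. Its groups did not overlap and the fitted change was -0.22 (SE 0.086, adjusted p = 0.249). Cox6a1, the widely expressed form of subunit 6a, was the only complex IV row with all knockout arrays above the wild-type arrays, at 0.10 (adjusted p = 0.508).

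Several complex IV subunits exist as tissue isoforms, and none of the isoforms passed the test. Cox4i1, the widely expressed form of subunit 4, read 9.48, 9.58 and 9.52 in wild-type and 9.34, 9.42 and 9.52 in knockout kidneys, a log2FC of -0.10 (SE 0.079, adjusted p = 0.577). Cox4i2, the form that is known as a HIF target, read 4.59, 4.58 and 4.61 against 4.47, 4.64 and 4.60, a log2FC of -0.03 with a 95% interval from -0.20 to 0.15. It was below the array median on all 6 arrays. Among the other isoforms the muscle and heart forms Cox6a2 and Cox7a1 had -0.16 (adjusted p = 0.525) and 0.07 (adjusted p = 0.708), and the widely expressed Cox7a2, Cox6b1 and Cox8a had -0.07, -0.07 and 0.01 (adjusted p from 0.715 to 0.951). The testis forms Cox6b2, Cox7b2 and Cox8c had -0.08, 0.05 and -0.06 (adjusted p from 0.711 to 0.850), with Cox7b2 and Cox8c under the lower quartile of every array.

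Cox8b, the form of subunit 8 found in muscle, heart and brown fat, varied more between arrays than any other member. It read 4.84, 3.92 and 3.81 in wild-type and 4.82, 3.83 and 4.53 in knockout kidneys, so that wild-type replicate 1 and knockout replicates 1 and 3 were high. Its log2FC of 0.20 had an SE of 0.333 (adjusted p = 0.807). Ucp1, the uncoupling protein of brown fat, had 6.03, 5.06 and 3.93 in wild-type and 6.33, 3.92 and 5.54 in knockout kidneys, and was thus highest on the same 3 arrays. Of the other brown adipocyte markers Cidea was also highest on these arrays. Prdm16, Otop1, Dio2 and Elovl3 were not, and Zic1 hardly varied. The mean of the 7 measured brown adipocyte markers ranged from 4.17 to 4.65 in wild-type and from 4.19 to 4.67 in knockout kidneys, and none of the 7 passed the test. The mean of the 13 striated muscle markers was 4.01 to 4.18 and 4.05 to 4.16. The part of fat in the Cox8b signal was not tested.

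Complex V joins a catalytic head, which makes ATP, to a membrane rotor. Its alpha and beta subunits were close to level between the genotypes. Atp5b, the catalytic beta subunit, read 11.80, 11.76 and 11.79 in wild-type and 11.74, 11.79 and 11.76 in knockout kidneys, a log2FC of -0.02 with a 95% interval from -0.18 to 0.14. Atp5a1, the alpha subunit, had -0.03 with an interval from -0.18 to 0.13. The most negative value of complex V was that of Atp5md, a small subunit of the membrane part, which read 9.37, 9.66 and 9.45 against 9.25, 9.17 and 9.32. Its groups did not overlap, with a log2FC of -0.25 (SE 0.096, adjusted p = 0.249). Atp5e, the epsilon subunit of the head, had -0.15 (adjusted p = 0.356) and Atp5d, the delta subunit, 0.07 (adjusted p = 0.642). The 5 subunits of the head had a median of -0.03 and the 7 of the membrane part and stalk -0.01. Atp5c1-ps, a pseudogene row under the lower quartile of all arrays, had 0.26 (adjusted p = 0.375), against -0.06 for Atp5c1.

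**Figure D3:**
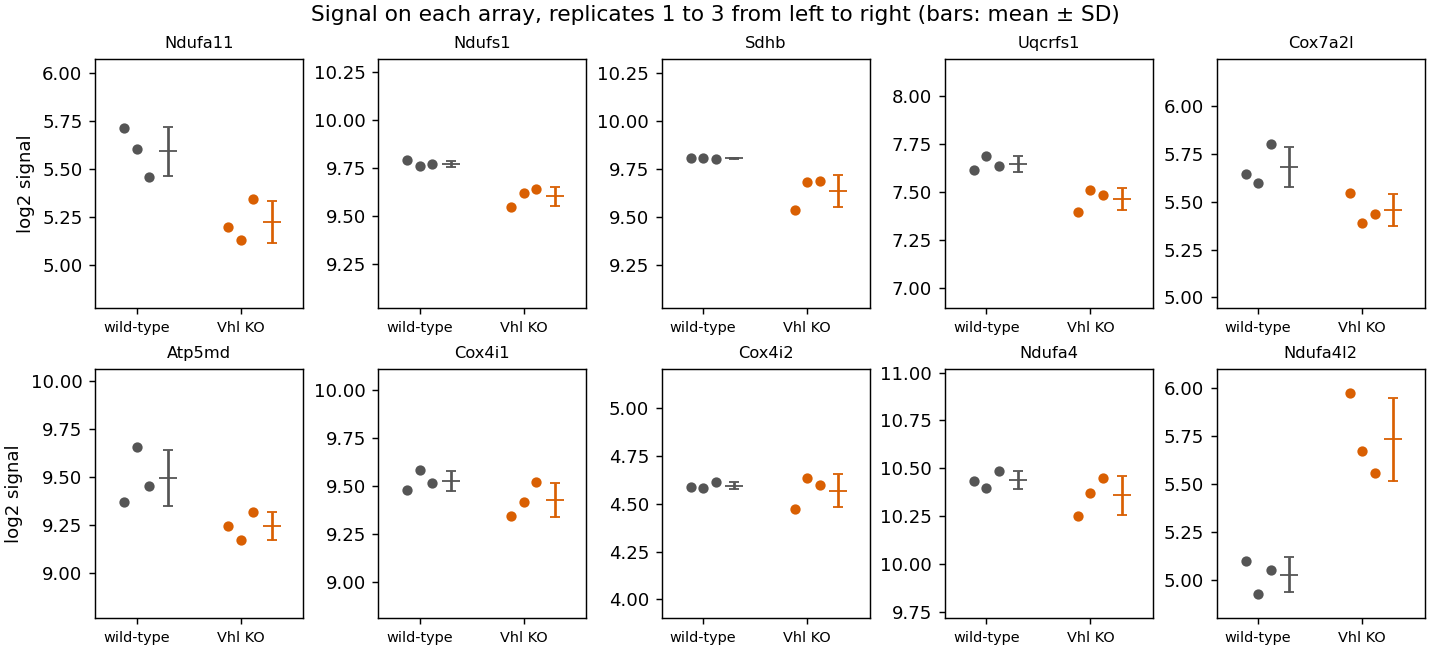
Each dot is the log2 signal of an array, with wild-type in grey and Vhl knockout in orange, replicates 1 to 3 from left to right, and the bars give the mean ± SD (n = 3). The vertical axes differ in position but all span the same range. Ndufa4l2 separates by 0.71, whereas the subunits shown differ by 0.03 to 0.37.

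The lower values were most marked on the array of knockout replicate 1. The median over members of the difference from the wild-type mean was -0.13 on the array of knockout replicate 1, -0.04 on that of replicate 2 and -0.02 on that of replicate 3. Of the 77 members 62 lay below the wild-type mean on the first of these arrays, 52 on the second and 46 on the third. These are 80.5%, 67.5% and 59.7%, against 55.8%, 54.9% and 54.6% of all rows. Of the rows above the array median on all arrays, 47.6%, 53.2% and 51.6% lay below it. On wild-type arrays 1, 2 and 3 the counts of members were 46, 33 and 38 (59.7%, 42.9% and 49.4%, against 49.9%, 48.5% and 51% of all rows). By this count knockout replicate 3 equalled wild-type replicate 1. Knockout replicate 1 was the lowest of the 6 arrays in 46 members (59.7%), against 23.8% of all rows. By complex its median difference was -0.15 for complex I, -0.18 for complex II, -0.21 for complex III, -0.10 for complex IV and -0.06 for complex V. In complex II all 4 rows lay below the wild-type mean on each of the 3 knockout arrays. In complex III all 8 rows did so on the arrays of knockout replicates 1 and 2, but only 4 on that of replicate 3. Without knockout replicate 1 the median over members was -0.03, with 49 of 77 below 0 (63.6%, against 56.1% of all rows). That array had the lowest mean correlation with the arrays of its own genotype (0.9923, against 0.9931 to 0.9941). It also had the lowest array weight from limma, 0.64 against 0.99 to 1.22. With these weights the median over members was -0.04, with 56 of 77 below 0 (72.7%, against 57% of all rows).

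**Figure D4:**
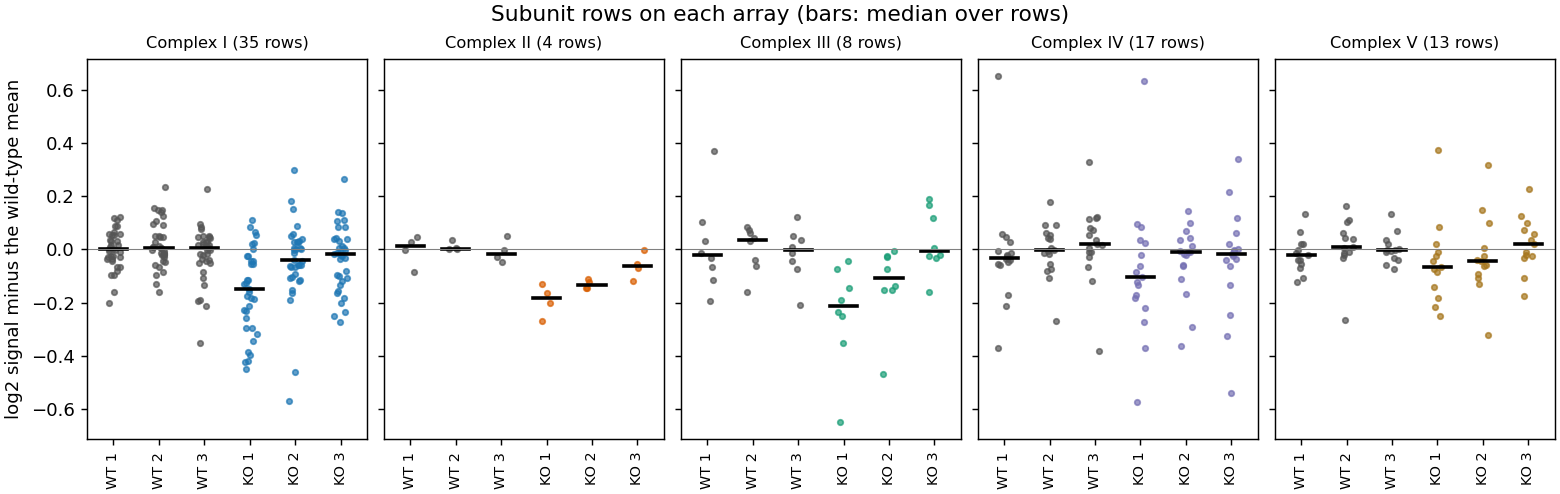
Each dot is a subunit row, plotted for each array as its log2 signal minus the mean of the 3 wild-type arrays (WT, grey; KO, coloured), and the black bars are medians over the rows of a complex. The bars of KO 1 are the lowest in all 5 complexes, at -0.06 to -0.21.

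Markers of several cell types also differed between the arrays, not all in the order of the subunits. All 7 white adipocyte markers had positive fitted changes, and their mean log2 signal was 6.75, 4.26 and 5.86 on the arrays of knockout replicates 1, 2 and 3, against 4.03 to 4.47 on the wild-type arrays. None of the 7 passed the test, and 5 lay below the wild-type mean on the array of knockout replicate 2. Of 18 proximal tubule markers 16 were below 0 with a median log2FC of -0.10, none passed the test, and their mean was 10.89, 11.01 and 11.04 on the knockout arrays against 11.10 to 11.13 on the wild-type arrays. All 15 macrophage markers had positive fitted changes and 13 passed the test, against 2.24% of all rows called higher. The mean of the 15 was 6.60 to 6.70 on the knockout and 5.38 to 5.60 on the wild-type arrays. With the proximal tubule mean as a covariate the median over the subunits was 0.04 and 31 of 77 were below 0. The genotypes did not overlap in that mean, so that covariate and genotype share variation, and that fit called 1 of all rows. With the white adipocyte mean as a covariate the median was -0.03 and 48 of 77 were below 0. The white adipocyte mean was high on the arrays of knockout replicates 1 and 3 only, so that this covariate and genotype share variation too. For this reason neither fit can separate cell content from genotype, and the part of other cell types in the subunit values was not tested.

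Ndufa4l2, known as a HIF target that lowers the activity of complex I in hypoxic cells, rose in the knockout kidneys. It read 5.10, 4.93 and 5.05 in wild-type and 5.97, 5.67 and 5.55 in knockout kidneys, with every knockout array above every wild-type array. The mean signal was 5.03 ± 0.089 in wild-type and 5.73 ± 0.22 in knockout kidneys (SD, n = 3), which gave a log2FC of 0.71 (SE 0.120, adjusted p = 0.0281 from limma). This was a 1.63-fold higher signal, with a 95% interval of 1.34-fold to 1.98-fold. Its paralog Ndufa4, counted here under complex I by its symbol but known as a subunit of complex IV, read 10.43, 10.40 and 10.49 against 10.25, 10.37 and 10.45, a log2FC of -0.08 (SE 0.080, adjusted p = 0.665). The call of Ndufa4l2 was lost when any wild-type array or knockout replicate 2 was left out (adjusted p up to 0.0986), in the fit blocked by replicate number (adjusted p = 0.0603) and with either covariate, at a log2FC of 0.58 for adipocytes and 0.35 for the proximal tubule. Of 10 genes listed here as linked to HIF and to respiration or mitochondria, Ndufa4l2 was the only one to pass, against 2.77% of all rows called. The list was not limited to genes that HIF is known to raise directly. Pdk1, which keeps pyruvate from the TCA cycle, had 0.30 (adjusted p = 0.174), with all knockout arrays above the wild-type arrays.

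Genes that build or feed the chain were fitted in the same way, and most of their values were likewise below 0. Of 19 assembly factors of complex I, 17 had fitted changes below 0 (median -0.10) and none passed, and Acad9 had the largest change, -0.29 (adjusted p = 0.225). All 4 assembly factors of complex II were below 0 (median -0.15), as were 6 of 8 for complex III with cytochrome c1 (median -0.13) and 16 of 21 for complex IV (median -0.08), where Taco1, an activator of translation of a mitochondrial subunit, had -0.27 (adjusted p = 0.147). Of 7 assembly factors and regulators of ATP synthase, 2 of which are Atp5 members themselves, 5 were below 0 (median -0.16). Of 16 genes of cytochrome c, ubiquinone synthesis and electron transfer, 13 were below 0 with a median of -0.10. Cytochrome c itself, Cycs, had -0.37 with an SE of 0.218 (adjusted p = 0.449). Among 16 TCA cycle enzymes 13 were below 0 with a median of -0.06, and among 15 carriers and structural proteins of mitochondria 11, with a median of -0.04. None of these genes passed the test in limma. Slc25a4, the heart and muscle form of the ADP/ATP carrier, had a positive value of 0.23 (adjusted p = 0.179), which passed with trend and robust eBayes (adjusted p = 0.0467).

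Perm1, which raises mitochondrial genes in muscle downstream of the ERR receptors, was lower in the knockout kidneys. It read 4.86, 4.97 and 4.87 in wild-type and 3.91, 4.16 and 4.29 in knockout kidneys, a log2FC of -0.78 (SE 0.109, adjusted p = 0.0143). The groups did not overlap, and all 6 arrays were below the array median for this row. The call was lost when any of the 3 wild-type arrays was left out (adjusted p from 0.0555 to 0.0596) and with either covariate. Of the other 13 regulators of mitochondrial biogenesis none passed the test, and the list as a whole had 12 of 14 below 0 with a median of -0.14. Tfb2m, a transcription factor of mitochondrial DNA, had -0.51 with an SE of 0.267 (adjusted p = 0.391). Of 12 collecting duct genes, from the segment where Hoxb7 is known to be active, 9 had fitted changes below 0. Of the 12, 3 passed the test as lower, against 0.524% of all rows. They were Fxyd4 with -0.78 (adjusted p = 0.0144), the water channel Aqp3 with -0.70 (adjusted p = 0.00684) and the steroid enzyme Hsd11b2 with -0.40 (adjusted p = 0.0359). The call of Hsd11b2 was lost whichever array was left out (adjusted p up to 0.119) and that of Fxyd4 without wild-type replicate 1, wild-type replicate 2 or knockout replicate 1 (adjusted p up to 0.0646), and all 3 were lost with either covariate. None of 10 markers of the loop of Henle and distal tubule passed the test.

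**Figure D5:**
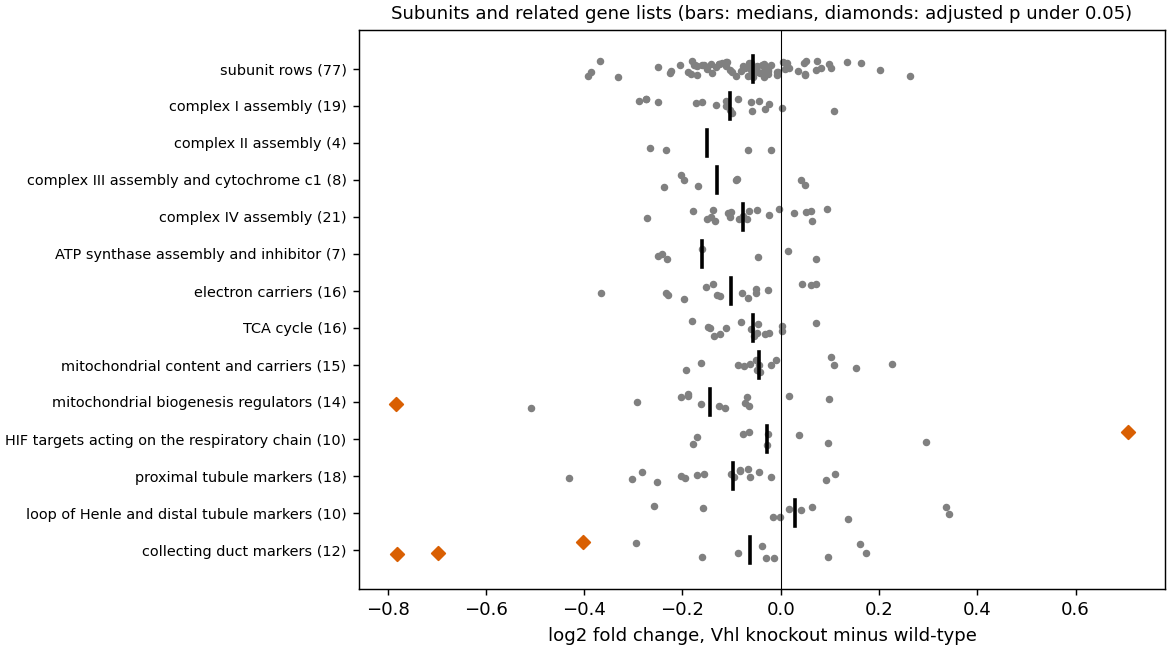
Each dot is the fitted log2FC (Vhl knockout minus wild-type) of a gene, by list with the number of measured genes in brackets, black bars are medians and orange diamonds mark an adjusted p under 0.05 from limma. None of the 77 subunit rows is a diamond, while Perm1, Ndufa4l2 and 3 collecting duct genes are.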

How the data were processed

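RNA of 3 wild-type and 3 Vhl knockout whole kidney samples was hybridized to Affymetrix Mouse Gene arrays, 1 array per sample, and genotype and replicate number were taken from the sample labels. The deposited values are log2 signals that the authors obtained with RMA, 1 per Entrez Gene row, and the sources used here give neither a software version nor an annotation build. Both deposited tables hold the same log2 values, with 0 differences over 25206 rows. The authors' own comparison (a moderated statistic, its p and q) was not used. Symbols came from a RefSeq gene table (GRCm38.p6) by Entrez ID, in which 23740 rows matched.

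Genotype was the sole term of a linear model over all rows (lmFit and eBayes of limma 3.58.1 under R 4.3.3). The fit was tested on simulated data. Promoters were searched with Python 3.11.15 and pandas 2.3.3. Members, lists, modules and alternatives were chosen with earlier results of these data known. Genes named were, in each complex, the 2 most positive and the 2 most negative members by change, the isoform families, Ndufa4 and Ndufa4l2, and in each list those that passed or else up to 2 of the most changed; others were chosen after their values were seen. Alternatives covered normalization, centring, a filter on dim rows, variance model, array weights, replicate block, arrays left out, threshold, marker covariates and members left out. Precision is limited by the number of arrays. Subunits with processed pseudogenes may share probe signal with them.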

Additional observations from a re-analysis of the deposited data

How the results depend on the processing

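The count of subunits passing the test was 0 higher under all settings tried and 0 lower under all but one, the filter on dim rows (a signal over the median of an array at least 3 times), where 66 members remained and 1, Ndufa11, was lower. The number of all changed rows, 697, was 1101 with that filter, 1094 with trend and robust eBayes, 1340 at a threshold of 0.1, 119 with the white adipocyte covariate, 1 with the proximal tubule covariate, 245 to 409 with 1 array left out and, in a setting chosen after seeing the data, 8 without Vhl knockout replicates 1 and 3. With the proximal tubule covariate the median log2FC was 0.036 for all members, 0.044 for complex I, -0.054 for complex II, 0.073 for complex III and 0.036 for complex IV. The median of complex IV was -0.0088 with the white adipocyte covariate and -0.0097 without knockout replicates 1 and 3. The cause of these shifts was not tested. Centring each array on its median gave a median of -0.08 over members and -0.05 over all rows, with 63 of 77 members below 0.
Same-numbered arrays deviated from their group means with correlations of 0.036, 0.073 and -0.100 over all rows. The labels do not say whether replicate numbers pair the samples, and with 3 arrays per genotype these correlations cannot settle it. With the replicate block 270 rows changed and 0 subunits passed. The block also ended the calls of Ndufa4l2 (adjusted p = 0.0603) and Hsd11b2 (adjusted p = 0.111). Of the 77 members 11 were not above the array median on all arrays and 4 were dimmer than the lower quartile throughout, which limits what those rows can show.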
